A study of Mus musculus with 12 samples.

Results

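The experiment described here put Nfib into a mouse small cell lung cancer line that has little of it. KP22 is a line derived from a tumor, labelled with the genotype Trp53-/-;Rb1-/- and as Nfib low, and it was compared with an expression vector holding Nfib cDNA against the same line with an empty vector. The samples were chosen by their titles, 2 with the cDNA and 2 with the empty vector, which makes 4 of the 12 samples of the series. The other 8 samples are of the lines 16T and KP1, which carry the same deletions, are labelled Nfib high and received an Nfib shRNA or a control shRNA. All lines grew as floating spheres in RPMI with 10% FBS. The promoter of the vector is not given in the sources used here, and KP22 is a single line. All genes with 1 name were kept, 23226 of the 28112 features of the authors' deposited table.

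Nuclear factor I (NFI) proteins, encoded by Nfia, Nfib, Nfic and Nfix, bind DNA as dimers at a palindrome made of the letters TTGGC and GCCAA with 5 bases between them, and they activate some genes and repress others. Nfib is needed for the maturation of the lung and for the development of the brain, and its locus is often amplified in small cell lung cancer. These tumors are neuroendocrine: their cells store peptide hormones in dense-core granules, from which the content is released when the cell is stimulated.

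For each gene the authors' deposited table gave a mean normalized count over all 12 libraries, and for KP22 a log2 fold change of Nfib cDNA over empty vector with its SE (written ± below) and an adjusted p. A gene is called higher or lower where that adjusted p was below 0.05. No value per sample was analysed here, so the groups' own levels, their overlap and the depth of each library are unknown, and the mean says little about KP22 itself. Nothing in the labels tells whether the duplicates were grown apart, so the p-values measure only the spread between these samples. The neuroendocrine label was compared with 6 markers, each detected in the series: the authors' deposited table gave mean normalized counts of 15922 for Insm1, 25383 for Chga, 5290 for Syp, 8873 for Ncam1, 5678 for Calca and 30602 for Ddc. Among markers of other cells, 3 of 22 leukocyte genes, 2 of 12 fibroblast genes, 2 of 12 endothelial genes and 5 of 16 airway genes had a mean of 0. The counts higher and lower in KP22 were 1 and 1 of 13 tested for leukocytes, 0 and 2 of 9 for fibroblasts, 0 and 4 of 9 for endothelium, 0 and 1 of 11 for airway and 0 and 1 of 8 for factors of tumors without neuroendocrine features (Ascl2, -1.28). The called ones were Cd79a (1.05 ± 0.21) above and Coro1a (-1.52 ± 0.10), Pdgfrb (-1.21), Thy1 (-0.80), Kdr (-1.76 ± 0.16), Egfl7 (-1.20), Vwf (-0.75), Erg (-0.72) and Abca3 (-0.21) below in the authors' deposited table. The part of such cells in the results was not tested. In bulk RNA, fewer cells of a type and less RNA per cell cannot be told apart.

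Nfib, the gene on the vector, had a log2 fold change of 1.80 ± 0.036 in the authors' deposited table, a 3.49-fold higher level than with the empty vector. It was counted on 11 exon intervals of chromosome 4 (82290173 to 82505779, minus strand, mm10), and its mean normalized count was 30668. The headings do not name the direction of the comparison, and it was read from this value, so Nfib is no independent check of the labels. Reads of the cDNA and of the endogenous gene are counted together. A further feature of 166 bases, whose joined name holds Nfib only, was left out with the other joined names. Its mean was 428 and its log2 fold change 0.52 ± 0.43, not called, in the authors' deposited table. The relatives of Nfib changed as well in the authors' deposited table: Nfix rose (1.04 ± 0.060), Nfic rose (0.32 ± 0.049) and Nfia fell (-0.56 ± 0.14). The table also gave means of 411 for Trp53 and 6555 for Rb1, the deleted genes, with 0.83 ± 0.52 (not called) and 0.23 ± 0.044 (called) in KP22. All listed exons are counted for each gene, so these values do not test the deletions.

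Of 17544 tested genes, 3423 (19.5%) were higher and 3307 (18.8%) were lower with Nfib cDNA. The counts in the gene lists below are to be read beside these shares. After the median effect of 0.04 was subtracted from every gene, 2879 were higher and 3685 lower, so the more frequent direction turned with this step. Read against Student's t with 6 degrees of freedom, which is stricter, 2133 were higher and 2192 lower; for the lists below, counts of more than 5 that either setting moved by over 1.5 times are given beside them. The median size of a called change was 0.45 on the log2 scale. Large changes were more often falls: 505 genes rose and 911 fell by at least 1, 122 rose and 202 fell by at least 2, and 11 rose and 24 fell by at least 4. The share of genes called followed the precision. At a mean of 1000 to 10000, with a median SE of 0.0723, 2146 of 7239 genes were higher and 1804 lower, whereas at a mean of 10 to 100, with a median SE of 0.477, 133 of 2721 were higher and 230 lower. Protein-coding genes gave 3163 higher and 3093 lower of 14955, and long noncoding RNA genes 58 and 26 of 914.

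**Figure D1:**
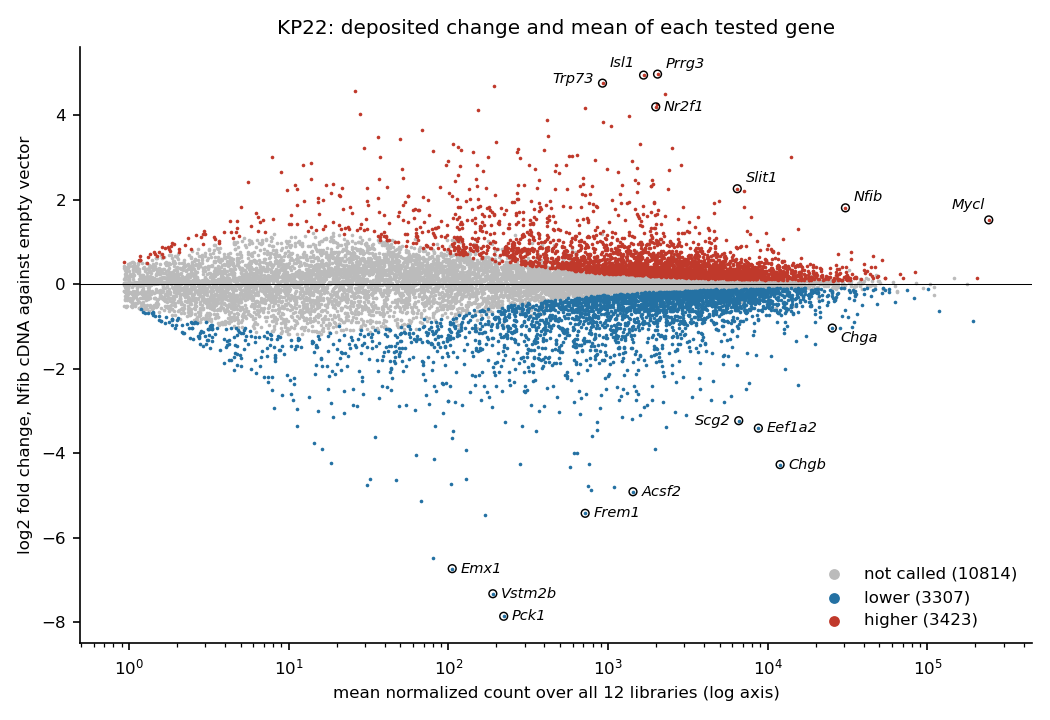
Each point is 1 of 17544 tested genes; the horizontal log axis is the mean normalized count over all 12 libraries and the vertical axis the log2 fold change of Nfib cDNA against empty vector in KP22, from the authors' deposited table. The 3423 higher genes are red and the 3307 lower ones blue; Pck1 (-7.86) lies lowest, Prrg3 (4.97) and Isl1 (4.94) highest, and Mycl (1.52) is far to the right.

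The genes that rose most with Nfib cDNA included transcription factors, surface proteins and a relative of p53. Prrg3, which encodes a membrane protein with a gamma-carboxyglutamate domain, rose by 4.97 ± 0.14 in the authors' deposited table (31.3-fold). Isl1, a LIM homeodomain factor of motor neurons and of endocrine cells, rose by 4.94 ± 0.24 (30.8-fold). Trp73, which encodes p73, rose by 4.75 ± 0.18 in the authors' deposited table, and the leucine-rich repeat gene Lrrn1 by 4.50 ± 0.23. Nr2f1, an orphan nuclear receptor of the developing brain, had 4.19 ± 0.17 and Twist1, a basic helix-loop-helix factor of the mesoderm, 3.88 ± 0.27 in the authors' deposited table. Surface and matrix genes of this size in the authors' deposited table were Lrp2 (4.13 ± 0.43), an endocytic receptor, Tll1 (4.17 ± 0.23), a tolloid protease, Mcam (3.74 ± 0.13), an adhesion molecule of the immunoglobulin family, and Podn (3.84 ± 0.16), a leucine-rich proteoglycan. Pkp1 (3.98 ± 0.12), a desmosomal plaque protein, Necab2 (4.26 ± 0.14), a neuronal calcium-binding protein, Vstm2a (3.51 ± 0.21) and Ppp1r1b (3.36 ± 0.28), the phosphatase inhibitor DARPP-32, rose as well in the authors' deposited table. By the Wald statistic, which is the change over its SE, the leading genes in the authors' deposited table were Mycl (1.52 ± 0.030, mean 242149), Nfib itself, the secreted axon repellent Slit1 (2.26 ± 0.053), the acyl-CoA synthetase Acsl1 (1.60 ± 0.044), Nbl1 (1.97 ± 0.056), a BMP antagonist, and Atp13a3 (1.30 ± 0.039), a polyamine transporter.

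The largest fall was in Pck1, the cytosolic PEP carboxykinase of gluconeogenesis: the authors' deposited table gave -7.86 ± 0.44, or 0.432% of the level with the empty vector. Vstm2b, a surface protein of the immunoglobulin family, had -7.32 ± 0.43 and Emx1, a homeobox gene of the forebrain, -6.73 ± 0.44, which are 0.625% and 0.942% of the level with empty vector in the authors' deposited table. The 3 genes had means of 222, 190 and 106 normalized counts over the 12 libraries. Extracellular genes followed in the authors' deposited table with Ccbe1 (-5.46 ± 0.43), a secreted protein of lymphatic growth, Frem1 (-5.42 ± 0.27), a basement membrane protein, Adamts9 (-4.78 ± 0.20), a protease of proteoglycans, and Enpp2 (-4.25 ± 0.34), the secreted lysophospholipase autotaxin. Receptor and enzyme genes that fell were Gria4 (-4.80 ± 0.32), an AMPA receptor subunit, Htr5a (-4.73 ± 0.46), a serotonin receptor, Acsf2 (-4.91 ± 0.20), an acyl-CoA synthetase, and Pde3a (-4.32 ± 0.20), a phosphodiesterase, in the authors' deposited table. Cercam (-4.26 ± 0.30), AW551984 (-4.88 ± 0.38) and the olfactory receptor pseudogene Olfr1372-ps1 (-4.60 ± 0.43) were the other members of the 15 largest falls beside Chgb, described below, in the authors' deposited table. The strongest falls relative to their SE included Eef1a2 (-3.41 ± 0.056), the elongation factor isoform of neurons and muscle, Gstm5 (-2.78 ± 0.057), a glutathione transferase, Gpr56 (-2.0 ± 0.043), an adhesion receptor, Iqgap1 (-1.42 ± 0.037), a scaffold, and D430019H16Rik (-1.71 ± 0.043) in the authors' deposited table.

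Transcription factors of the neuroendocrine program rose more often than they fell: of 21 tested, 11 were higher and 4 lower, with a median of 0.41 against 0.04 over all tested genes. Insm1, a zinc finger repressor of endocrine differentiation, rose by 0.47 ± 0.039 in the authors' deposited table. After Isl1 came Neurod4 (2.81 ± 0.26), Pou3f2 (2.27 ± 0.33) and Isl2 (1.51 ± 0.30), factors of neuronal differentiation, in the authors' deposited table. Neurod1, which marks another subtype of the tumor, fell (-1.82 ± 0.19), as did Nkx2-1, the lung lineage factor (-0.21 ± 0.051), in the authors' deposited table. Prox1 had 0.12 ± 0.057 and Neurog3 -0.18 ± 0.14 in the authors' deposited table, both not called.

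Genes of the dense-core granule fell although Insm1 rose. Of 16 granins and granule membrane genes, 12 were lower and 1 higher, with a median of -0.60, and of 8 prohormone processing enzymes 7 were lower and 0 higher, with a median of -0.95. Chgb, the chromogranin that fills the granule, was at 5.19% of the level with empty vector (-4.27 ± 0.059) in the authors' deposited table, and Scg2, secretogranin 2, at 10.7% (-3.23 ± 0.089). Resp18 (-2.74 ± 0.089), the receptor-like granule membrane protein Ptprn (-2.40 ± 0.050) and the convertase inhibitor Pcsk1n (-1.70 ± 0.095) followed in the authors' deposited table, and Chga had -1.04 ± 0.037. Cadps2, a priming factor of granule release, rose (0.16 ± 0.046), while Cadps (-0.05 ± 0.076), Vgf (0.00 ± 0.10) and Baiap3 (0.31 ± 0.22) were not called in the authors' deposited table. The convertases that cut prohormones fell: Pcsk2 had -2.64 ± 0.081, Pcsk1 -1.67 ± 0.055 and Furin -1.19 ± 0.099 in the authors' deposited table. Pam, which amidates peptides, had -1.0 ± 0.044 and Cpe, which trims them, -0.90 ± 0.037 in the authors' deposited table, and Qpct (-0.48 ± 0.24) was not called.

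Of the 19 genes of both granule lists that had an entry in the RefSeq promoter table (build GRCm38.p6), 3 carried the palindrome TGACGTCA, known as the cyclic AMP response element, within 250 bases before to 50 bases after the start. They were Scg2, Chgb and Pcsk1, all lower, and the match began 68, 72 and 78 bases before the start. The same letters stood in 507 of 27018 promoters of the same length, taking 1 per gene (1.88%), and in 2.98% of those of the genes tested in KP22. By direction the share was 3.79% for higher genes, 3.38% for lower genes and 2.57% for genes not called, and 2.55% for falls of at least 1. In the list of synaptic vesicle genes described next, 2 of 28 promoters held the letters, those of Slc18a2, the vesicular monoamine transporter, which rose (0.69), and Syn1, synapsin, which fell (-0.57), in the authors' deposited table. The motif was chosen after the changes were seen, and a match is a description of the letters. The 250 bases before each start are shown because these 3 fell with the rest of the granule genes and share the element at nearly the same distance. They read 5′ to 3′ on the gene's strand with the match in capitals. For Chgb the deposited exons begin at 132781278, so this RefSeq start lies within the deposited gene.
Scg2, chr1:79440027-79440276, minus strand: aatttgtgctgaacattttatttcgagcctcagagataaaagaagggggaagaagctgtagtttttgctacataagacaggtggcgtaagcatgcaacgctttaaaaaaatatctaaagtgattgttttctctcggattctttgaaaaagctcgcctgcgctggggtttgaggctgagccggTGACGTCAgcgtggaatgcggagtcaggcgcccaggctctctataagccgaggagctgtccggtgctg
Chgb, chr2:132781392-132781641, plus strand: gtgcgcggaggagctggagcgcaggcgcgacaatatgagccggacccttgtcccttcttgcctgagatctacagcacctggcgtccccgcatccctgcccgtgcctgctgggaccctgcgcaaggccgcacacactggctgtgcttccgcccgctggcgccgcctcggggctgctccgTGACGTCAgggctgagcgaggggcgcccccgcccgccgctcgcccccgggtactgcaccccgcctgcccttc
Pcsk1, chr13:75089607-75089856, plus strand: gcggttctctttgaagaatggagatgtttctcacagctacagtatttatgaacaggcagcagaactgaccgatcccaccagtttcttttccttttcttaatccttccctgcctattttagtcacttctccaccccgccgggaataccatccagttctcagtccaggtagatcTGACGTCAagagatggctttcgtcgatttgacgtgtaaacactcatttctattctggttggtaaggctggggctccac

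Genes of synaptic vesicles and exocytosis also fell, with 24 of 39 tested lower, 5 higher and a median of -0.45. The vesicular glutamate transporter Slc17a7 (-2.85 ± 0.45), the GTPase Rab3b (-2.64 ± 0.15), the syntaxin Stx1a (-2.26 ± 0.22) and the priming factor Unc13b (-1.93 ± 0.090) fell most in the authors' deposited table. Syt5, a synaptotagmin, rose by 1.72 ± 0.11 in the authors' deposited table. Further calls ran from the vesicle proteins Sv2b (-1.53 ± 0.096) and Syp (-0.86 ± 0.051) to Snap25 (-0.18 ± 0.062), and the complexins Cplx1 (1.14 ± 0.13) and Cplx2 (0.60 ± 0.031) rose in the authors' deposited table. Syt7 (0.02 ± 0.039) and Rims2 (0.04 ± 0.059) were not called although their SEs were small in the authors' deposited table. Calcium sensors and clamps of release thus stood among the rises, the falls and the genes not called.

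**Figure D2:**
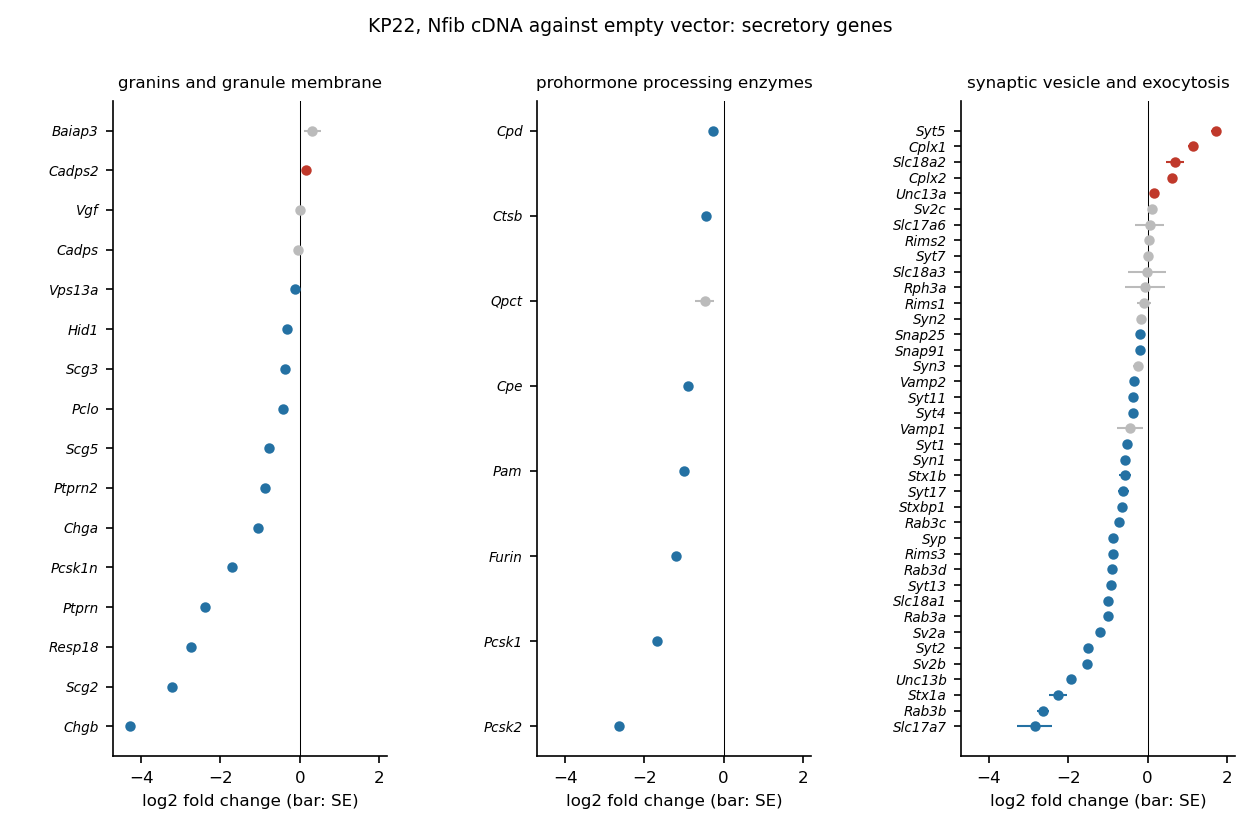
Points are log2 fold changes of Nfib cDNA against empty vector in KP22 with bars of 1 SE, from the authors' deposited table, for 16 granule genes, 8 prohormone processing enzymes and 39 vesicle genes; blue is lower, red higher and grey not called. Chgb (-4.27) and Scg2 (-3.23) lie farthest left, no processing enzyme lies to the right of 0, and Syt5 (1.72) is the vesicle gene farthest right.

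Genes for the transmitters themselves were lower or not called. Of 12 catecholamine and serotonin genes, 5 were lower and 0 higher, with a median of -0.37: Th, tyrosine hydroxylase, which starts catecholamine synthesis, was at 11.8% of the level with empty vector (-3.09 ± 0.12) and Gch1, which makes its cofactor, at 30.6% (-1.71 ± 0.062) in the authors' deposited table. Dbh (-1.81 ± 0.41, at a mean of 4.21) and Ddc (-0.60 ± 0.037) were also lower, and Tph1, which starts serotonin synthesis, had 0.02 ± 0.11 in the authors' deposited table. Peptide genes went both ways, 3 of 23 higher and 3 lower. Calca, which encodes calcitonin and CGRP, fell (-1.71 ± 0.056) together with Iapp (-1.0 ± 0.21) and Trh (-1.46 ± 0.44), whereas Grp (1.66 ± 0.30), Crh (1.35 ± 0.39) and Tac2 (1.68 ± 0.46) rose in the authors' deposited table. Trh and Tac2 had low means, 4.72 and 6.23 normalized counts in the authors' deposited table.

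Receptors and channels changed in both directions. Over all tested genes 19.5% were higher and 18.8% lower. The shares were 0% and 18.2% for nicotinic subunits and 32.4% and 24.3% for glutamate, GABA and glycine receptors. They were 26.6% and 18.8% for potassium channels and 20.4% and 30.6% for calcium and sodium channels. The lower shares of nicotinic subunits and potassium channels were thus near that of all genes. Of 11 nicotinic receptor subunits 2 were lower and 0 higher: Chrna3 (-2.99 ± 0.30) and Chrnb4 (-1.88 ± 0.26), which are neighbors on chromosome 9, while Chrna5 of the same cluster was not called (-0.13 ± 0.37) in the authors' deposited table. Of 37 glutamate, GABA and glycine receptor genes 12 were higher and 9 lower. The GABA-A subunit Gabra4 (2.62 ± 0.20), the NMDA subunit Grin3a (1.85 ± 0.15) and the metabotropic receptor Grm7 (1.83 ± 0.25) rose, and beside Gria4 the NMDA subunit Grin2d (-1.88 ± 0.18) fell in the authors' deposited table. Potassium channels gave 17 higher and 12 lower of 64 (10 and 6 with Student's t), with Kcnf1 (-2.07 ± 0.20) as the largest fall in the authors' deposited table. Calcium, sodium and related cation channels gave 10 higher and 15 lower of 49. The sodium channel Scn3a (-1.62 ± 0.18), the calcium channel subunit Cacna2d4 (-1.57 ± 0.28), the cation channel Trpv2 (-1.56 ± 0.17) and the mechanosensitive channel Piezo2 (-1.27 ± 0.19) all fell in the authors' deposited table.

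Axon guidance genes changed in both directions within a family. Of 40 ephrin, netrin and Slit genes 12 were higher and 8 lower. Netrin 1 (Ntn1, 3.04 ± 0.18) rose with the receptor Unc5d (3.03 ± 0.37), whereas the netrin receptors Unc5b (-1.60 ± 0.15) and Dcc (-1.45 ± 0.16) fell, in the authors' deposited table. The ephrin receptors Epha4 (2.82 ± 0.21) and Epha5 (1.93 ± 0.084) rose and Epha2 (-1.84 ± 0.24) fell, while the Slit receptor Robo1 was not called (0.03 ± 0.048), in the authors' deposited table. Semaphorins, plexins and neuropilins gave 11 higher and 13 lower of 31, a balance that turned to 8 and 7 with Student's t. Sema5a (2.73 ± 0.50) and Sema6a (2.32 ± 0.15) rose and Sema6b (-1.82 ± 0.13) and the receptor Nrp1 (-1.68 ± 0.078) fell in the authors' deposited table. Neuronal adhesion molecules gave 19 higher and 18 lower of 60, with large changes at both ends: Lrrn1, Vstm2a and Lingo1 (2.65 ± 0.17) rose, and Vstm2b, Lrrc4b (-2.61 ± 0.15), Cntn3 (-2.52 ± 0.11) and Iglon5 (-2.47 ± 0.24) fell in the authors' deposited table. Ncam1, a diagnostic marker of the tumor, fell by 0.24 ± 0.043.

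Cadherins were more often higher and matrix genes more often lower. Of 39 cadherins and protocadherins 13 were higher and 4 lower, among them Cdh6 (2.82 ± 0.33), Cdh4 (1.81 ± 0.069) and Pcdh17 (1.56 ± 0.36), with Cdh16 (-3.76 ± 0.48, at a mean of 14.3) as the largest fall, in the authors' deposited table. Cdh1, which encodes E-cadherin, rose by 0.22 ± 0.059 and Cdh2, N-cadherin, was not called (0.08 ± 0.057) in the authors' deposited table. Of 43 keratin and junction genes 14 were higher and 7 lower, which became 10 and 8 when recentred and 8 and 5 with Student's t. The epithelial transcription factors Grhl2 (1.07 ± 0.076) and Elf3 (0.93 ± 0.077) rose with Pkp1, and the keratins Krt17 (-1.06 ± 0.43) and Krt18 (-0.76 ± 0.043) fell, in the authors' deposited table. Mesenchymal transition genes numbered 27, of which 4 were higher and 7 lower (4 and 4 with Student's t), with Twist1, Snai2 (1.54 ± 0.22) and Snai3 (1.26 ± 0.24) among the rises and Zeb1 (-1.63 ± 0.26) and Thbs1 (-3.09 ± 0.092) falling in the authors' deposited table. Vim, which encodes vimentin, was not called (0.55 ± 0.47).

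Matrix genes were lower in 15 of 53 collagen, laminin and basement membrane genes (6 higher) and in 16 of 51 matricellular and proteoglycan genes (5 higher). Col26a1 (-2.54 ± 0.38), Col5a3 (-1.86 ± 0.46) and Col14a1 (-1.60 ± 0.52) fell after Frem1, while the basement membrane genes Lama5 (1.06 ± 0.039), Nid1 (1.0 ± 0.27) and Col4a1 (0.94 ± 0.077) rose, in the authors' deposited table. Ltbp1, which holds latent TGF-beta in the matrix, rose by 3.32 ± 0.12, whereas its relatives Ltbp3 (-1.16 ± 0.066) and Ltbp4 (-0.75 ± 0.080) fell in the authors' deposited table. The brain matrix gene Tnr (-2.52 ± 0.33) and the syndecan Sdc2 (-2.40 ± 0.48) were also lower in the authors' deposited table. Metalloproteases and inhibitors gave 9 higher and 12 lower of 50 (5 and 8 with Student's t), and beside Tll1 and Adamts9 the calls included Mmp16 (1.51 ± 0.32), Tll2 (1.5 ± 0.42) and Adamts5 (-1.36 ± 0.20) in the authors' deposited table. Integrin subunits were lower in 6 of 23 and higher in 1. Itga1 (2.08 ± 0.49) rose and Itgb5 (-1.98 ± 0.45), Itgb4 (-1.80 ± 0.28) and Itgb1 (-0.60 ± 0.041), the common beta chain, fell in the authors' deposited table.

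Genes of the Notch pathway rose more often than they fell. Of 28 genes 15 were higher, 3 lower and 10 not called, with a median of 0.38. Among ligands Dll4 (2.38 ± 0.087), Dlk2 (1.31 ± 0.17), Jag1 (1.12 ± 0.10) and Dll3 (0.73 ± 0.085), the inhibitory ligand of these tumors, rose in the authors' deposited table. Among receptors Notch2 rose (0.32 ± 0.11), and Notch1 (0.60 ± 0.33) and Notch3 (0.26 ± 0.37) were not called in the authors' deposited table. Among target genes Heyl (3.19 ± 0.22), Hes5 (1.03 ± 0.37) and Nrarp (0.69 ± 0.14) rose, whereas Hes1 (-0.19 ± 0.30) and Hey1 (0.13 ± 0.12) were not called in the authors' deposited table. Hes6, which is an antagonist of Hes1, rose by 1.02 ± 0.044 in the authors' deposited table. The coactivator Maml2 (-1.82 ± 0.48) and the Notch inhibitor Numbl (-1.21 ± 0.10) fell in the authors' deposited table.

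Wnt and TGF-beta genes changed in both directions. For Wnt genes the shares were 27.1% higher and 16.7% lower, against 19.5% and 18.8% of all tested genes. Of 48 Wnt genes 13 were higher and 8 lower (9 and 5 with Student's t): the ligands Wnt4 (-4.0 ± 0.29) and Wnt5b (-3.27 ± 0.31) and the inhibitor Wif1 (-2.67 ± 0.35) fell, and the ligase Rnf43 (2.82 ± 0.50) and the decoy receptor Sfrp5 (2.81 ± 0.16) rose, in the authors' deposited table. Of 48 TGF-beta and BMP genes 20 were higher and 11 lower (9 and 6 with Student's t). The follistatin genes Fstl1 (-3.04 ± 0.21) and Fst (-1.89 ± 0.24) and the receptor Tgfbr2 (-1.57 ± 0.51) fell in the authors' deposited table. Id1 (0.88 ± 0.060), Id2 (0.76 ± 0.046), Smad6 (0.50 ± 0.19) and Smad7 (1.0 ± 0.13), which BMP and TGF-beta signals induce, rose in the authors' deposited table. The TEAD genes Tead1 (0.78 ± 0.043), Tead2 (2.52 ± 0.41), Tead3 (1.57 ± 0.30) and Tead4 (1.95 ± 0.46) rose, Yap1 was not called (0.40 ± 0.33) and Amotl1, which binds YAP, fell (-3.19 ± 0.12), in the authors' deposited table. The YAP and TEAD list as a whole had 7 higher and 3 lower of 23.

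Receptor tyrosine kinases gave 9 higher and 12 lower of 39, a balance that turned to 7 and 6 with Student's t. Ddr2 (2.35 ± 0.15), a collagen receptor, rose, and Ror2 (-2.41 ± 0.26), Egfr (-1.94 ± 0.46) and Flt4 (-1.95 ± 0.52) fell, while Ret (-0.05 ± 0.078) was not called, in the authors' deposited table. Among ERK feedback and immediate early genes, 12 of 37 were higher and 11 lower, turning to 11 and 12 when recentred and to 6 and 10 with Student's t. The largest changes of that list were falls in the authors' deposited table: Egr1 was at 9.68% of the level with empty vector (-3.37 ± 0.13), Fos at 18.4% (-2.44 ± 0.13), and Dusp2 (-2.38 ± 0.28), Egr4 (-1.73 ± 0.40) and Etv5 (-1.33 ± 0.20) followed. Nr4a2 (1.02 ± 0.12) and Klf4 (1.05 ± 0.17), early genes of the same list, rose in the authors' deposited table, and Jund had 0.03 ± 0.052.

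Cell cycle genes rose more often than they fell, mostly by small amounts. Of 56 DNA replication genes 39 were higher, 2 lower and 15 not called, with a median of 0.28, and of 50 mitosis and spindle genes 43 were higher and 1 lower, with a median of 0.32. The E2F family genes E2f2 (1.20 ± 0.046), an activator, and E2f7 (0.68 ± 0.068), a repressor, led the first list with Mcm10 (0.61 ± 0.078), Rrm2 (0.57 ± 0.041) and Gins3 (0.54 ± 0.12) in the authors' deposited table. Orc3 (-0.42 ± 0.067) and Gins1 (-0.35 ± 0.13) fell in the authors' deposited table. Gins1 lies in a run of 11 lower genes on chromosome 2, described below. The second list was led in the authors' deposited table by the centromere gene Cenpk (0.59 ± 0.10), the centriole kinase Plk4 (0.58 ± 0.074), the transcription factor Foxm1 (0.53 ± 0.068), Kif18a (0.52 ± 0.078) and the proliferation marker Mki67 (0.48 ± 0.045), and its 1 fall was Tpx2 (-0.30 ± 0.037), on chromosome 2. Some cell cycle inhibitors were lower in the authors' deposited table: Cdkn2d (-0.87 ± 0.068), Cdkn1c (-0.82 ± 0.13), Cdkn1a (-0.52 ± 0.088) and Cdkn2c (-0.24 ± 0.069). With the cyclins and CDKs their list had 3 higher, 4 lower and 8 not called of 15, and inhibitors were not counted apart.

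Promoters of the cell cycle genes carried letters known from such promoters. The E2F motif, searched as TTTNNCGC on both strands, stood in 18 of 46 DNA replication promoters (39.1%), against 5.27% of 27018 promoters and 7.65% of those of tested genes. The CCAAT box, searched as CCAAT on both strands, stood in 29 of 42 mitosis promoters (69.0%), against 37.9% and 38.4%; it shares 4 letters with an arm of the NFI palindrome. Among all genes that were higher in KP22 the E2F letters stood in 10.8% of promoters, among those lower in 6.23% and among those not called in 7.07%. The median GC content was 62.3% in replication promoters, 58.7% in mitosis promoters and 60% in those of tested genes. The motifs were again chosen after the changes were seen. Mcm6, a subunit of the replicative helicase (0.22 ± 0.031 in the authors' deposited table), and Top2a, topoisomerase II alpha (0.40 ± 0.029), are shown because each holds several matches, 3 and 6, given in capitals in the 250 bases before the RefSeq start (GRCm38.p6).
Mcm6, chr1:128359706-128359955, minus strand: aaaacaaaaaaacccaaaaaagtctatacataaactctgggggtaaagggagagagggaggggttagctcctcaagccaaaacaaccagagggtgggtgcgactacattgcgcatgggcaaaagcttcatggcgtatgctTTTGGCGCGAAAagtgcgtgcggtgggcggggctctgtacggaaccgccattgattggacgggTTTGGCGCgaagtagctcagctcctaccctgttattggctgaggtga
Top2a, chr11:99024190-99024439, minus strand: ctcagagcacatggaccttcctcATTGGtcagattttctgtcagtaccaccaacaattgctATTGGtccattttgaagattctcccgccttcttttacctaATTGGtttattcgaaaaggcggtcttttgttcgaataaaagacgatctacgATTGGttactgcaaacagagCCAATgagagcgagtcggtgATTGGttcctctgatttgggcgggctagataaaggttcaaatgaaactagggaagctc

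Myc genes rose together. Of 13 genes of the Myc family and Max network 7 were higher and 3 lower, with Mycl (1.52 ± 0.030), Mycn (1.11 ± 0.14) and Myc (0.83 ± 0.30) all higher and Mnt (0.57 ± 0.059), an antagonist, higher as well in the authors' deposited table. Mycl lies on chromosome 4 (122996099 to 123002480, plus strand) and is the Myc gene known to be amplified in many of these tumors. In the p53 family and target list, 8 of 28 were higher and 7 lower, which turned to 7 and 8 when recentred and was 6 and 4 with Student's t. Beside Trp73 its member Eda2r, a death receptor of the TNF family, rose by 2.99 ± 0.41, and the kinase Plk2 fell by 1.09 ± 0.20 in the authors' deposited table. The p53 target Mdm2 (-0.04 ± 0.055) was not called in the authors' deposited table. In the BCL2 family 4 of 17 were higher and 5 lower, with Bnip3 (-0.61 ± 0.058) and Bak1 (0.46 ± 0.091) among the calls, and Bcl2 itself (0.05 ± 0.11) was not called in the authors' deposited table.

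Genes of hypoxia and glycolysis fell more often than they rose, and genes of cholesterol and fatty acid synthesis rose more often than they fell. Of 40 hypoxia and glycolysis genes 26 were lower and 4 higher, with a median of -0.31. Eno2 (-1.80 ± 0.093), the neuronal enolase, Pfkm (-1.63 ± 0.083), the muscle phosphofructokinase, the prolyl hydroxylases P4ha2 (-1.01 ± 0.099) and P4ha1 (-0.92 ± 0.056) and Aldoa (-1.0 ± 0.038) fell most in the authors' deposited table. The enzymes Gapdh (-0.42 ± 0.087), Pkm (-0.34 ± 0.028) and Pgk1 (-0.37 ± 0.034) fell less, whereas Ldha (0.11 ± 0.033) and Pfkfb3 (0.68 ± 0.067) rose and Vegfa, the hypoxia-induced growth factor, was not called (-0.07 ± 0.081), in the authors' deposited table. Of 34 cholesterol and fatty acid synthesis genes 20 were higher and 6 lower, with a median of 0.26. The mevalonate and sterol enzymes Mvd (0.90 ± 0.073), Hmgcs1 (0.82 ± 0.046), Hsd17b7 (0.77 ± 0.086), Fdft1 (0.71 ± 0.056) and Cyp51 (0.66 ± 0.062) rose most, while Fasn, the fatty acid synthase, had 0.00 ± 0.035 in the authors' deposited table. Other mevalonate and sterol enzymes fell in the authors' deposited table: Tm7sf2 (-0.55 ± 0.12), Pmvk (-0.46 ± 0.072) and Dhcr7 (-0.25 ± 0.068). Sqle (0.03 ± 0.043) and Mvk (-0.07 ± 0.11) were not called.

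Among genes of fatty acid use and gluconeogenesis more were lower than higher. Of 31 acyl-CoA synthetase and fatty acid oxidation genes 14 were lower, 4 higher and 13 not called (9 lower and 3 higher with Student's t). Beside Acsf2, the acetyl-CoA synthetase Acss2 (-2.07 ± 0.090) and Acsl6 (-0.97 ± 0.12) fell and Acsl1 rose, in the authors' deposited table. Of 15 gluconeogenesis and lactate genes 8 were lower and 2 higher (5 and 2 with Student's t), with Ldhb (-1.42 ± 0.21) second to Pck1, and the mitochondrial Pck2 (-0.26 ± 0.056) fell far less in the authors' deposited table. Of 50 oxidative phosphorylation genes 9 were lower (18.0%, against 18.8% of all tested genes) and 1 was higher. These counts became 18 and 0 when recentred and 4 and 0 with Student's t. The largest called change was Cox7b (-0.38 ± 0.074) in the authors' deposited table. Among 13 carbonic anhydrases Car8 (-2.74 ± 0.18) and Car11 (-0.50 ± 0.081) fell and Car14 (1.33 ± 0.41) and Car15 (0.90 ± 0.28) rose in the authors' deposited table.

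Genes of the stress responses to unfolded proteins and amino acid lack went both ways. Of 37 genes of that list 11 were higher and 16 lower. Pdia6 (-0.73 ± 0.050), Canx (-0.52 ± 0.045), Hspa5 (-0.48 ± 0.034) and Atf6 (-0.39 ± 0.053) fell, and Chac1 (1.0 ± 0.083), the cystine transporter Slc7a11 (0.98 ± 0.19) and the serine synthesis gene Phgdh (0.74 ± 0.057) rose, in the authors' deposited table. Ddit3, which encodes CHOP, was not called (-0.07 ± 0.16). Genes of antigen presentation fell where they were called: 10 of 17 MHC class I genes were lower and 0 higher, with a median of -0.55. The transactivator Nlrc5 (-2.60 ± 0.50), H2-M3 (-1.29 ± 0.44), B2m (-1.28 ± 0.14), the light chain of the complex, and the trimming enzyme Erap1 (-1.02 ± 0.11) fell, while the classical heavy chain genes H2-K1 (-0.18 ± 0.059, called) and H2-D1 (-0.12 ± 0.060, not called) were nearer to 0, in the authors' deposited table. The H2 genes are close copies of each other, and reads between them may be split. Of 35 interferon-stimulated genes 9 were lower and 2 higher, including Usp18 (-2.55 ± 0.34), Oas3 (-1.71 ± 0.45) and Irf1 (-1.70 ± 0.13), in the authors' deposited table.

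Developmental transcription factors rose more often than they fell. Homeobox genes were higher in 27 of 93 and lower in 11, with Satb1 (3.21 ± 0.098), a chromatin organizer, next to Isl1 and Pou3f2, in the authors' deposited table. The Hoxb genes Hoxb2 (0.77 ± 0.079), Hoxb4 (0.60 ± 0.093), Hoxb5 (0.42 ± 0.066), Hoxb6 (0.34 ± 0.060), Hoxb8 (0.33 ± 0.061) and Hoxb9 (0.42 ± 0.044) rose, while Hoxb3 (0.16 ± 0.074) and Hoxb7 (0.13 ± 0.070) were not called, in the authors' deposited table. SOX and forkhead factors were higher in 18 of 42 and lower in 5, among them Sox8 (2.08 ± 0.46), Foxq1 (1.70 ± 0.43) and Foxp2 (1.39 ± 0.38), with Foxi1 (-3.89 ± 0.46, at a mean of 16.1) lower, in the authors' deposited table. Sox2 (0.92 ± 0.11), Sox4 (1.04 ± 0.061) and Sox11 (0.73 ± 0.044), factors of neural progenitors, rose in the authors' deposited table. Of 45 nuclear receptors 15 were higher and 11 lower (9 and 6 with Student's t); after Nr2f1 came the vitamin D receptor Vdr (2.09 ± 0.44) and Rorb (1.80 ± 0.16), against Esrrb (-2.62 ± 0.45), in the authors' deposited table. The Eya and Dach network had 10 tested genes, of which 4 were higher and 1 lower, with Eya2 (2.31 ± 0.23) and Eya1 (1.41 ± 0.16) above and Dach1 (-0.70 ± 0.056) below in the authors' deposited table.

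Chromatin genes gave 22 higher and 15 lower of 63 (20 and 8 with Student's t, 20 and 19 recentred), with Smarca2 (-1.32 ± 0.42), Hdac7 (0.79 ± 0.071), Chd5 (0.78 ± 0.073), Hdac11 (-0.74 ± 0.062) and Hdac5 (-0.61 ± 0.039) as the largest changes in the authors' deposited table. Ezh2, the methylase of the polycomb complex, rose by 0.43 ± 0.050 in the authors' deposited table. Cytosolic ribosomal proteins gave 19 higher and 8 lower of 58, which became 12 and 10 when recentred and 10 and 2 with Student's t, with Rps20 (0.41 ± 0.034) as the largest change in the authors' deposited table; many have processed copies elsewhere in the genome. Imprinted genes, which are expressed from 1 parental copy, were lower in 11 of 21 and higher in 2. Plagl1 (-2.23 ± 0.47), Ndn (-1.49 ± 0.11), Peg3 (-1.13 ± 0.16) and Nnat (-1.06 ± 0.040) fell, and Mest (0.96 ± 0.21) and Igf2 (0.49 ± 0.13) rose, in the authors' deposited table.

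**Figure D3:**
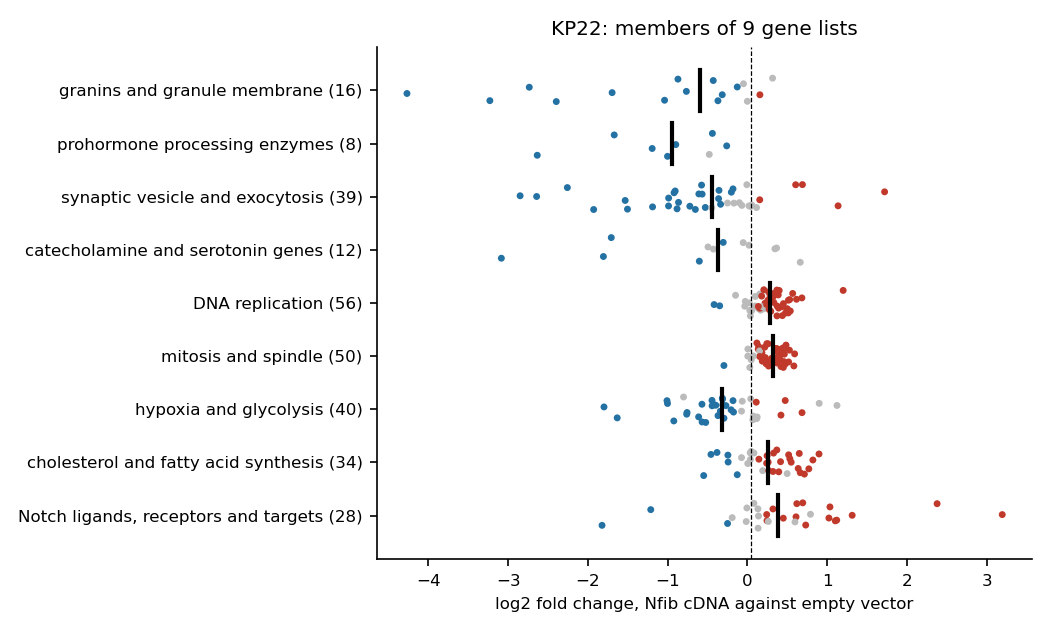
Each point is a tested member of a gene list, placed at its log2 fold change of Nfib cDNA against empty vector in KP22 (authors' deposited table) and spread vertically only for legibility; red is higher, blue lower, grey not called, black bars are list medians and the dashed line is the median of all tested genes. Granule, processing, vesicle, transmitter and glycolysis lists have medians from -0.95 to -0.31, and replication, mitosis, sterol and Notch lists from 0.26 to 0.38.

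The effect in KP22 was then set against the knockdown lines, whose effects were turned so that both read towards more Nfib; these comparisons share no samples. The test of the difference covered 15008 genes with a mean of at least 10, of which 2657 (17.7%) had a higher effect in KP22 and 2858 (19.0%) a lower one. Isl1 differed most upwards (5.34 ± 0.25), since it rose in KP22 and had 0.02 in 16T and 0.78 in KP1 with the shRNA in the authors' deposited table. Prrg3 (4.53 ± 0.15), Fam124a (4.36 ± 0.41), Twist1 (4.01 ± 0.31) and Mcam (3.94 ± 0.15) also differed, with effects of the shRNA between -0.68 and 0.49 in the authors' deposited table. The chemokine genes Cxcl13 and Cx3cl1 and the aldehyde dehydrogenase gene Aldh1a7 rose in all 3 lines whichever way Nfib was changed. For Cx3cl1 the authors' deposited table gave 1.08 ± 0.12 with the cDNA, and 2.98 in 16T and 2.88 in KP1 with the shRNA.

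Downwards, Vstm2b (-8.06 ± 0.55), Pck1 (-7.74 ± 0.57) and Emx1 (-7.03 ± 0.57) differed most, and none of these 3 was called in either knockdown line, nor was Frem1 (-5.55 ± 0.28). The levels of Vstm2b, Pck1 and Emx1 in 16T and KP1 are unknown. Not being called there therefore does not show that an effect was absent. Shrinkage would draw the effect of a gene with few reads in those lines towards 0. Pde3a (-6.59 ± 0.24), the fourth in size, fell in all 3 lines: by 4.32 with the cDNA, by 1.28 with the shRNA in 16T and by 3.25 in KP1 in the authors' deposited table. For the lists, the effect was lower in KP22 for 10 of 16 granule genes and higher for 3, and lower for 7 of 8 processing enzymes and higher for 0. With the shRNA 12 granule genes rose in 16T and 6 in KP1 and 3 and 4 fell, while 12 fell with the cDNA. Mitosis genes had a higher effect in KP22 for 45 of 50, and with the shRNA 14 rose and 10 fell in 16T, and 21 rose and 1 fell in KP1. DNA replication genes fell with the shRNA in 34 of 56 cases in 16T and 6 in KP1, and rose in 4 and 17. Hypoxia and glycolysis genes rose with the shRNA in 36 cases in 16T and fell in 20 in KP1, and the effect in KP22 was higher than their mean for 24 of 38. The shares of all tested genes that rose or fell with the shRNA in 16T and in KP1 were not counted. Whether the shRNA counts of these lists exceed those shares is therefore unknown.

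**Figure D4:**
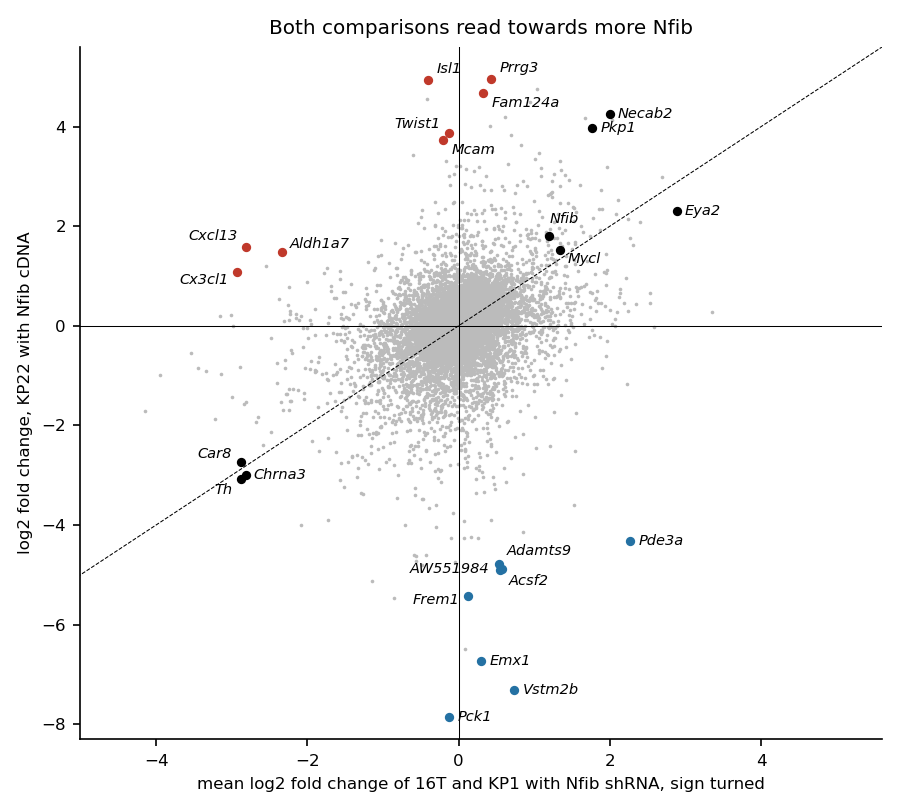
Each point is 1 of 15008 genes; the horizontal axis is the mean log2 fold change of 16T and KP1 with Nfib shRNA after turning its sign, the vertical axis that of KP22 with Nfib cDNA, both from the authors' deposited table, and the dashed line marks equal effects. The 8 genes with the largest differences upwards are red and downwards blue; Nfib (1.80), Mycl (1.52), Car8 (-2.74), Chrna3 (-2.99) and Th (-3.09) lie near the line in black, and Pkp1 (3.98) and Necab2 (4.26), also black, lie above it.

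Of 14504 genes tested in all 3 lines, 773 (5.33%) were called higher with more Nfib in each and 691 (4.76%) lower, while 729 were called in all 3 without a common direction. The higher genes whose weakest effect over the 3 lines was largest were Eya2, Arpp21, Eda2r, Thsd7b, Crybb1, Pkp1, Fgfrl1 and the noncoding RNA Rmst. Eya2, a transcriptional coactivator with phosphatase activity, had 2.31 ± 0.23 in KP22, -2.14 in 16T and -3.63 in KP1 in the authors' deposited table, and the neuronal phosphoprotein gene Arpp21 2.14 ± 0.24, -2.08 and -2.40. The lower genes of this rule were Car8, Rasgrf2, Chrna3, Th, Chrnb4, F5, Epha2 and Cyp26b1. Car8, which binds the inositol trisphosphate receptor, had -2.74 ± 0.18 in KP22, 3.19 in 16T and 2.57 in KP1 in the authors' deposited table, and Th -3.09 ± 0.12, 3.88 and 1.88. The difference between KP22 and the knockdown lines was not called for Car8 (0.14 ± 0.20), Th (-0.20 ± 0.16) or Chrna3 (-0.18 ± 0.33). Mycl followed Nfib in all 3 lines as well, with 1.52 ± 0.030 in KP22, -1.27 in 16T and -1.41 in KP1 in the authors' deposited table. Across 12287 genes with a mean of at least 100, Pearson's r with KP22 was 0.358 for 16T and 0.261 for KP1, both turned; genes are not independent replicates, and all effects come from 1 normalization. Of the 3423 higher and 3307 lower genes of KP22, 1743 were tested in both knockdown lines and called in neither. The same share over all genes was not counted, and a gene that was not called may still have an effect there.

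Changed genes also lay next to each other. Counting runs of at least 5 neighbouring tested genes called in 1 direction, there were 17 higher runs with 97 genes and 19 lower runs with 132 genes. Some runs of this length are expected from the shares of all tested genes alone (19.5% higher, 18.8% lower). Whether there were more runs than that was not tested. The longest held 19 genes of chromosome 2 (154657026 to 155814162), from Chmp4b to Mmp24, all lower, with a median of -0.68, and Acss2 was the member with the largest fall. Before it on the same chromosome stood lower runs of 11 genes (150407137 to 151561691, Zfp442 to Fkbp1a), 5 genes (Srxn1 to Trib3) and 5 genes (Plagl2 to Asxl1). Over the whole window of these 4 runs, chosen after they were seen, 57 of 90 tested genes were lower and 4 higher, with a median of -0.46. On the rest of chromosome 2, 275 of 1319 were lower and 256 higher, with a median of 0.03. In the knockdown lines the window had medians of -0.02 in 16T and -0.05 in KP1. Among stretches of 90 neighbouring tested genes on the other chromosomes, the most lower genes were 38, on chromosome 11 from Krt10 to Grn. Over all chromosomes, chromosome 2 included, the most higher genes were 34, on chromosome 13. The median stretch of all chromosomes had 18 higher and 16 lower. The copy number of these regions was not analysed here.

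**Figure D5:**
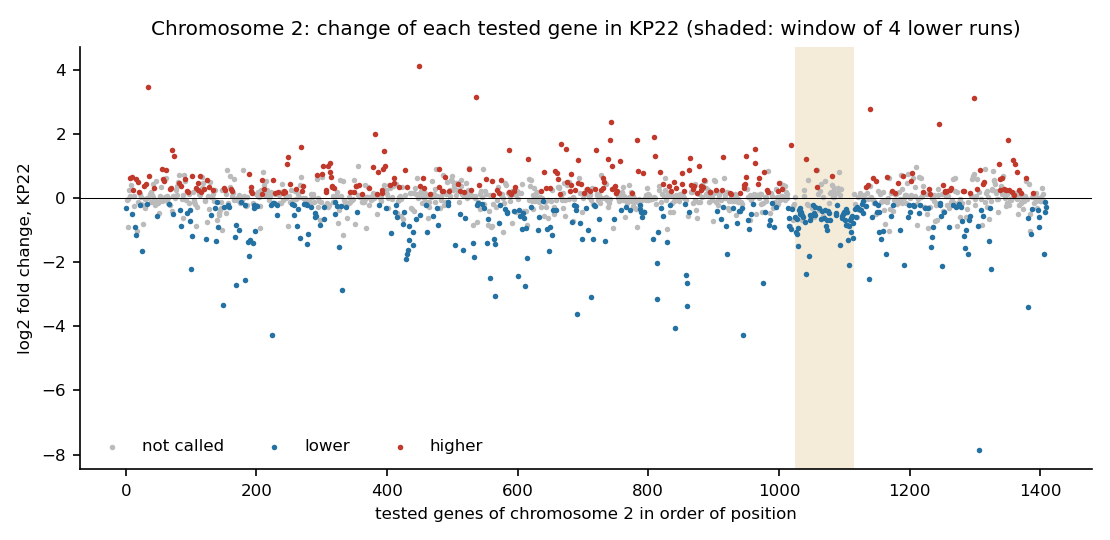
Points are the log2 fold changes in KP22 (authors' deposited table) of the tested genes of chromosome 2, placed in order along the chromosome; red is higher, blue lower and grey not called. In the shaded window of 90 genes 57 are lower and 4 higher, and the points sit below 0 as a band, with a median of -0.46.

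Shorter runs held known genes. On chromosome 5 (75607026 to 76570298) 9 neighbours from Kit to Exoc1 were lower, among them the receptor kinases Kit (-0.98 ± 0.051) and Kdr (-1.76 ± 0.16), the circadian regulator Clock (-2.33 ± 0.051) and the predicted gene Gm7271 (-6.48 ± 0.45) in the authors' deposited table. On chromosome 9 (4383537 to 6377519) Gria4 stood beside the inflammatory caspase genes Casp1 (-4.24 ± 0.45), Casp4 (-2.73 ± 0.47) and Casp12 (-2.04 ± 0.39), whose means in the authors' deposited table were 18.5, 10.7 and 4.55, and Pdgfd (-1.16). On chromosome 11 runs of 7 and 10 lower genes followed each other (100766332 to 101077671 and 101099008 to 101277409) and held Stat5a, Stat5b, Stat3 and the caveolar gene Ptrf (-2.17). On chromosome 12 (12936093 to 16800886) 8 higher genes ran from Mycn to Greb1, with the neurotensin receptor Ntsr2 (2.92) as the largest rise. On chromosome 10 (127677065 to 127792697) 7 higher genes included Tac2 and the retinol dehydrogenases Rdh1 (2.59) and Rdh9 (2.29). On chromosome X (134686519 to 134809221) 5 Armcx genes were lower, with Armcx3 (-2.92) as the largest fall; these are similar copies, and reads between them may be split. Neighbours can overlap, and it is not stated whether strand was used in counting.

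The promoters of changed genes were searched for NFI letters, since Nfib is the factor that was added. The full palindrome stood in 11 of 27018 RefSeq promoters (250 bases before to 50 after the start), too few to compare, so the arm TTGGCA was counted on both strands. It stood in 14.4% of all 27018 promoters and in 12.1% of the 12596 that matched a tested gene. The share was 11.3% for genes higher in KP22, 10.7% for genes lower and 12.9% for genes not called. Median GC content was 62% for promoters of higher and of lower genes and 58.3% for those of genes not called. The shares were not matched for GC content. Among genes that rose by at least 1 it was 14.9% (52 of 348), and among those that fell by at least 1 it was 10.4% (69 of 666). None of the 13 promoters of the largest rises and 2 of the 11 of the largest falls held it, those of Cercam and Frem1. Both are printed as the matches among the largest changes, on GRCm38.p6 and 5′ to 3′, as the 250 bases before the start with the arm in capitals (TGCCAA where it lies on the other strand), 207 and 229 bases before the start. These windows hold no distal elements. The first RefSeq start listed for each gene was used. Whether the starts of Cercam and Frem1 lie within the deposited genes, as that of Chgb does, is not given here. The printed bases may therefore not precede the first exon.
Cercam, chr2:29869244-29869493, plus strand: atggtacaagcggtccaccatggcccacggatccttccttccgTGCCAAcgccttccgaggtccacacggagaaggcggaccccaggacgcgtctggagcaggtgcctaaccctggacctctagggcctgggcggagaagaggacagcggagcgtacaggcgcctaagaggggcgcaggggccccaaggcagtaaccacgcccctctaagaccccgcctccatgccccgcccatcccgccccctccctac
Frem1, chr4:83021103-83021352, minus strand: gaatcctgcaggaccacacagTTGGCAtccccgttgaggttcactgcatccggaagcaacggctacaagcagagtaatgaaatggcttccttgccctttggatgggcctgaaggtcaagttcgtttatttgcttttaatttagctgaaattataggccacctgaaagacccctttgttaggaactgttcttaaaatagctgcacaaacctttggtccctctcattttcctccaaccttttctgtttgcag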

How the data were processed

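Total RNA came from a Qiagen kit and sequencing libraries from Illumina TruSeq reagents, per the labels' protocols. TopHat, bedtools, DESeq, DESeq2 and the build mm10 are named in the submitters' processing notes. Their versions, settings and order are not stated in the sources. Results rather than libraries fill the authors' deposited table. Its columns, per the file headers, are 1 mean normalized count per gene, which is a signal averaged across the 12 libraries, and for each comparison the log2 fold change, its SE (also log2), the Wald score, and a raw and adjusted p-value. A second deposited set of p-values tests whether the size of the change exceeds 0.5. No SE in KP22 exceeded 0.521 even for genes of low mean, as after shrinkage, which would understate the changes of such genes. Depth per library is unknown. Some genes are not reported here.

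Features with joined names were left out; the genes with 1 name held 93.7% of the summed means, and a gene may have further exons under a joined name. A gene was called at a deposited adjusted p below 0.05. A further 2023 genes with a mean above 0 have no deposited adjusted p in KP22 and were not tested. The difference from the knockdown lines was a z test on the deposited effects turned towards more Nfib, with SEs added as independent and Benjamini-Hochberg adjustment over 15008 genes. It was run on simulated effects with normal errors at the deposited SEs. Such data cannot show whether those SEs are right. The design had foreseen values per sample; as the table holds results only, no count model was fitted. Named genes were the 15 largest rises and falls with a mean of at least 100, the 8 largest Wald statistics in each direction, up to 5 called members per list, the 8 largest differences in each direction, 8 genes in each direction called in all 3 lines, and members of runs. Other called members named in the text were chosen after their values were seen. The members, the 54 lists and the motifs were chosen with earlier results of these data known. Promoters come from the RefSeq table of GRCm38.p6, which matched 12596 of 17544 tested genes. Python 3.11.15, pandas 2.3.3, scipy 1.17.1 and matplotlib 3.10.9 were used.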

Additional observations from a re-analysis of the deposited data

Results flagged for a closer look

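The effect of more Nfib differed between KP22 and the mean of the knockdown lines, by a z test of the difference with Benjamini-Hochberg adjustment, for 2657 genes with a higher effect in KP22 and 2858 with a lower one. The 8 largest differences upwards on the log2 scale were Isl1 (5.34), Prrg3 (4.53), Cxcl13 (4.40), Fam124a (4.36), Twist1 (4.01), Cx3cl1 (4.01), Mcam (3.94) and Aldh1a7 (3.81). Downwards they were Vstm2b (-8.06), Pck1 (-7.74), Emx1 (-7.03), Pde3a (-6.59), Frem1 (-5.55), Acsf2 (-5.46), AW551984 (-5.45) and Adamts9 (-5.31). KP22 differs from 16T and KP1 both as a line and in the way Nfib was changed, and these cannot be told apart.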

How the results depend on the processing

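The counts of 3423 higher and 3307 lower genes stayed within 1.5 times with a mean of at least 10 or 100, with joined features added, and when recentred on the median gene, where the share of higher calls moved from 50.9% to 43.9%. They moved, by a stricter rule, to 505 and 911 with a change of at least 1 and to 482 and 782 in the authors' test against 0.5. Read against Student's t with 6 degrees of freedom they were 2133 and 2192, and the differences from the knockdown lines 1612 and 1744. Of 495 named genes 485 stayed called when recentred and 411 with Student's t. No paired analysis was possible because the results table analysed here holds no values per sample, and a count file that the labels name was not analysed here; for the same reason no replicate was left out and no other tool or normalization was run. Precision is that of the authors' SEs.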

Other observations

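Long noncoding RNA genes outside the lists, chosen after their values were seen, changed in both directions in the authors' deposited table. Peg13, an imprinted RNA, rose by 1.42 ± 0.092 at a mean normalized count of 2000, and Rmst, an RNA of neuronal progenitors, by 1.93 ± 0.26. A830082K12Rik (2.43 ± 0.39), on chromosome 13 (78231218 to 78236564), lies close to Nr2f1 (78188973 to 78195689), which rose by 4.19 in the authors' deposited table. A230057D06Rik (-2.66 ± 0.24) and A330076H08Rik (-1.86 ± 0.29), neighbours on chromosome 7 (61705850 to 61981768), fell together in the authors' deposited table, as did Gm19990 (-1.23 ± 0.077) on chromosome 12.

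Called genes had longer exons in total than genes not called. At a mean of at least 1000 the median exonic length was 3202.5 bases for higher genes, 3153 for lower genes and 2727 for genes not called. The medians of their mean counts were 3362, 3568 and 2891, so called genes also had more reads. The parts of length and count in the calls were not tested.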
